A study of Drosophila melanogaster with 3 samples.

Results

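The achaete-scute complex of Drosophila melanogaster is a cluster of 4 genes on the X chromosome, achaete (ac), scute (sc), lethal of scute (l(1)sc) and asense (ase). Binding of the protein Insensitive (Insv) to it was read from every region whose summit, the position of highest signal, lay between X 369031 and X 464176 on the genome build dm6. These limits are the span of the 4 genes with 1000 bp on each side, 95.1 kb in all. The list called on the pooled replicates held 43 such regions of 30000. Among them were 3 of the 4753 peaks of the list that the authors made with a test of reproducibility between replicates (IDR). These IDR peaks were exactly the 4753 pooled regions with the highest signal score. Chromatin immunoprecipitation with sequencing was done with an antibody against GFP on pooled male and female embryos, collected whole at 0 to 24 h of age, of 1 transgenic fly line, strain insv-GFP, in which GFP is joined to the C-terminus of Insv. All 3 biological replicates formed a single group, without a second condition, so the values below are a description of 1 genotype and 1 age window. Whether the line also makes untagged Insv is not given in the sources used here. Read numbers are not given either, so the depth is unknown, and region lists hold no expression level against which the labelled tissue could be checked. Strong binding in few cells of the embryo and weak binding in many cannot be told apart.

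All 4 genes encode basic helix-loop-helix transcription factors that pair with the ubiquitous partner Daughterless and bind E-boxes. Expressed in small groups of ectoderm cells, ac, sc and l(1)sc give those cells the competence to become neural, and ase is then switched on in the selected neural precursors. Notch signalling restricts this competence through the repressors of the E(spl) complex, and many separate enhancers, spread over the DNA between the genes, drive the groups one by one. Insv is a BEN-domain protein, known as a transcriptional repressor in the nervous system and as a binder of the palindrome CCAATTGG, while the related Elba complex binds CCAATAAG.

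The sequences that carry the binding pattern are shown here on the plus strand of dm6, 5′ to 3′. From the strongest peak, 300 bases around the summit at X 407643 (chrX:407493-407792) are given. Its capitals mark, in order, an overlapping pair of matches to the degenerate Insv site, the Elba sequence read on the minus strand, and the 8-base sequence CCAATCAG read on the minus strand. From the peak between the genes Pgcl and ase, with its summit at X 451868, the 50 bases to each side are given (chrX:451818-451918), with an E-box and the sequence CAGGTAG of the early embryonic activator Zelda in capitals. The 150 bases upstream of sc (chrX:395910-396059), of ac (chrX:369881-370030) and of l(1)sc (chrX:409571-409720) are also given. They are shown because a bound region covered the start of each of these genes. Their capitals mark Zelda sequences, E-boxes and, in sc, a GAGA repeat. The Zelda sequence in the l(1)sc stretch lies left of the bound region there, which begins at X 409617. The longer stretch of the strongest peak and these upstream stretches were chosen after their values were seen.
Strongest peak: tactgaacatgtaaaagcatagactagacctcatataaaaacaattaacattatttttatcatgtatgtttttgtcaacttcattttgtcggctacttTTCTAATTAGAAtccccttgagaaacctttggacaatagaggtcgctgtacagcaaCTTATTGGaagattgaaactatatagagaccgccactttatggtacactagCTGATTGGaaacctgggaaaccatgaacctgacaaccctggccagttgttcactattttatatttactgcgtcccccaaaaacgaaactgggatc
Peak between Pgcl and ase: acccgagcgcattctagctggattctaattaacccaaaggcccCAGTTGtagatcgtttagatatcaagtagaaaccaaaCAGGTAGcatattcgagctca
Upstream of sc: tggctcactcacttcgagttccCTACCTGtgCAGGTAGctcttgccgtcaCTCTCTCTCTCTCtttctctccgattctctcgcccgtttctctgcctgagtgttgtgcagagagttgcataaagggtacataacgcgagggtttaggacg
Upstream of ac: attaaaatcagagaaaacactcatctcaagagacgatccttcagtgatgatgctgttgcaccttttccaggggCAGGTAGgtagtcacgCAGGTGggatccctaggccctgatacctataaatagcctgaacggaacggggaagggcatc
Upstream of l(1)sc: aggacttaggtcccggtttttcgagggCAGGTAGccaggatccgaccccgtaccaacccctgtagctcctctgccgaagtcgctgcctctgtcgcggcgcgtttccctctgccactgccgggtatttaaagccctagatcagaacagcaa

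A single peak between sc and l(1)sc stood far above the other regions of the complex in rank. It extended over 1139 bp (X 407028 to 408166), against a median of 510 bp over all IDR peaks, and 263 of those 4753 peaks (5.53%) were as long. With a signal score of 17605, the authors' own value per region on an unstated scale, it ranked 6 of 30000 in the pooled list. In the replicate lists its ranks were 5, 9 and 7, with scores of 4418, 6880 and 6455 in replicates 1, 2 and 3. All 3 replicates therefore placed it at the very top, at a rank percentile of 99.98 ± 0.00667 (SD, n = 3), and their summits lay within 2 bp of the pooled summit. It was the highest-ranked of the 866 IDR peaks on the X chromosome and of the 772 IDR peaks anywhere (16.2%) whose summit lay more than 2000 bp from every transcription start site (TSS). That limit was not varied, and this summit passed it narrowly, at 2078 bp from the nearest TSS.

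This peak lay 2078 bp upstream of the TSS of l(1)sc, the main proneural gene of the embryonic central nervous system, and 11583 bp downstream of the TSS of sc, a gene known for its role in the bristles of the adult fly. The right edge of the peak ended 1555 bp before the l(1)sc TSS. No exon covered the summit, although it fell within the span of CG32816, a protein-coding gene of the minus strand that runs from X 316576 to 470726 and encloses the whole complex.

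**Figure D1:**
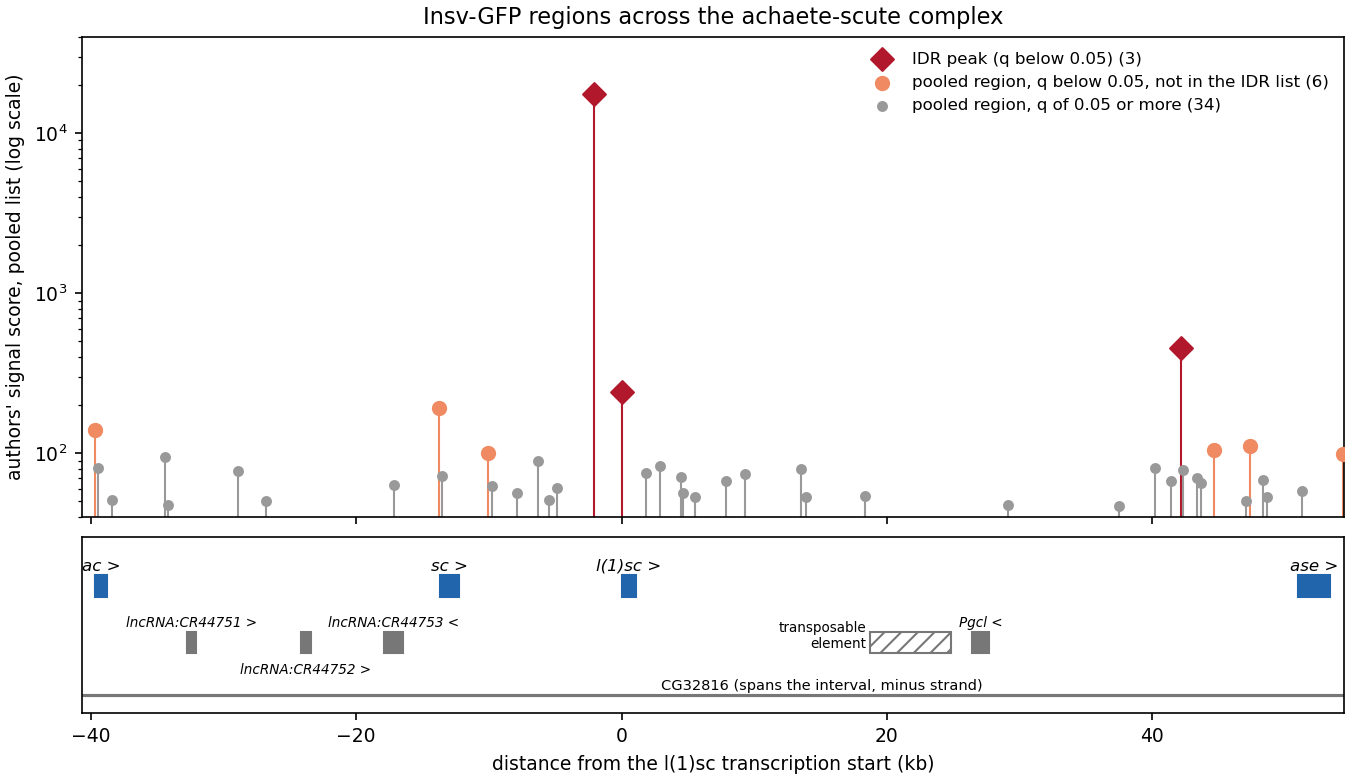
Upper panel, score of the 43 pooled regions (vertical axis, log scale) by distance of the summit from the l(1)sc TSS in kb (horizontal axis), with the 3 IDR peaks as diamonds, the 6 other regions with a q-value below 0.05 as large circles and the remaining 34 as small ones. Lower panel, the genes to scale with their direction and the large transposable element; the peak of score 17605 stands 2078 bp upstream of l(1)sc, and the next highest scores are 452 and 242.

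The other IDR peaks of the complex were far weaker in rank. One covered the promoter of l(1)sc itself, from X 409617 to 409786, with its summit at X 409736, 15 bp downstream of the TSS and in the exon. It ranked 4237 of 30000, inside the last part of the IDR list, with a score of 242. The replicates placed it at ranks 12293, 4746 and 2836, so replicate 1 stood apart from the others, and the rank percentile was 77.9 ± 16.7 (SD, n = 3). In replicate 1 the −log10 q of the covering region was 0.703, short of a q-value of 0.05.

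The third IDR peak lay in the long stretch between l(1)sc and ase, from X 451714 to 452034. Its summit at X 451868 was 8879 bp upstream of the TSS of ase, the gene of the complex that marks neural precursors. It ranked 1827 in the pooled list with a score of 452, and 2374, 2168 and 1705 in the replicates. These ranks were close together, at a percentile of 93.1 ± 1.14 (SD, n = 3). Of the 3 IDR peaks of the complex, 66.7%, 100% and 100% were among the 4753 highest-scored regions of replicates 1, 2 and 3, a mean of 88.9% ± 19.2 (SD, n = 3). The l(1)sc promoter peak, at rank 4746 in replicate 2, was only just among them there. The IDR peaks were the 4753 highest-scored regions of the pooled list, which was called on these same replicates. High shares are therefore built in and are no separate evidence of reproducibility. A place in the IDR list followed the pooled score and does not show that each peak agreed between replicates. The same share over all IDR peaks is not given here.

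Each of the 4 genes has 1 annotated TSS, and the promoters differed in rank. An IDR summit lay within 500 bp of the TSS of 1 of the 4, l(1)sc, against 24.8% of all 13945 protein-coding genes. Without replicate 2, and likewise without replicate 3, this count was 0, since replicate 1 did not place the l(1)sc promoter among its 4753 strongest regions. A pooled summit with a q-value below 0.05 lay there in 3 of the 4, ac, sc and l(1)sc, against 43.8% of all genes. With only 4 genes, neither count can be set apart from its background.

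The sc promoter had the strongest region below the IDR list. Its summit at X 395965 lay 95 bp upstream of the TSS, on the GAGA repeat shown above, and ranked 5645 with a score of 193. Replicates 1, 2 and 3 ranked it 11452, 6708 and 3900, and only in replicate 3 was it among the 4753 highest-scored regions. A second pooled region on the sc promoter, with its summit at X 396172 in the exon, ranked 17677 and was matched by the same regions of replicates 2 and 3.

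At ac, the gene at the left end of the complex, the summit at X 370010 lay 21 bp upstream of the TSS and ranked 8157 with a score of 140. The replicates gave ranks of 8093, 13819 and 5798, and in all 3 the q-value was below 0.05. A neighbouring summit in the ac exon, at X 370267, ranked 15337 and was covered by the same replicate regions, so the pair need not be separate sites. Across the replicates the percentile of the promoter regions was 75.5 ± 12.7 at sc and 69.2 ± 13.8 at ac (SD, n = 3), a spread that holds the difference between these promoters.

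The ase promoter ranked lowest of the 4. Its region had a summit at X 461062, 315 bp downstream of the TSS and in the exon, and ranked 22927 with a −log10 q of 0.413. The region began at X 460807 and did not cover the TSS at X 460747. Replicates 1 and 3 listed it at ranks 11857 and 29220, and replicate 2 did not list it. The 4 regions on which these promoters rest thus ranked, from highest to lowest, l(1)sc, sc, ac and ase in the pooled list. Replicates 2 and 3 gave this order too, with ase unlisted in replicate 2. In replicate 1 the order was ac, sc, ase and l(1)sc.

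**Figure D2:**
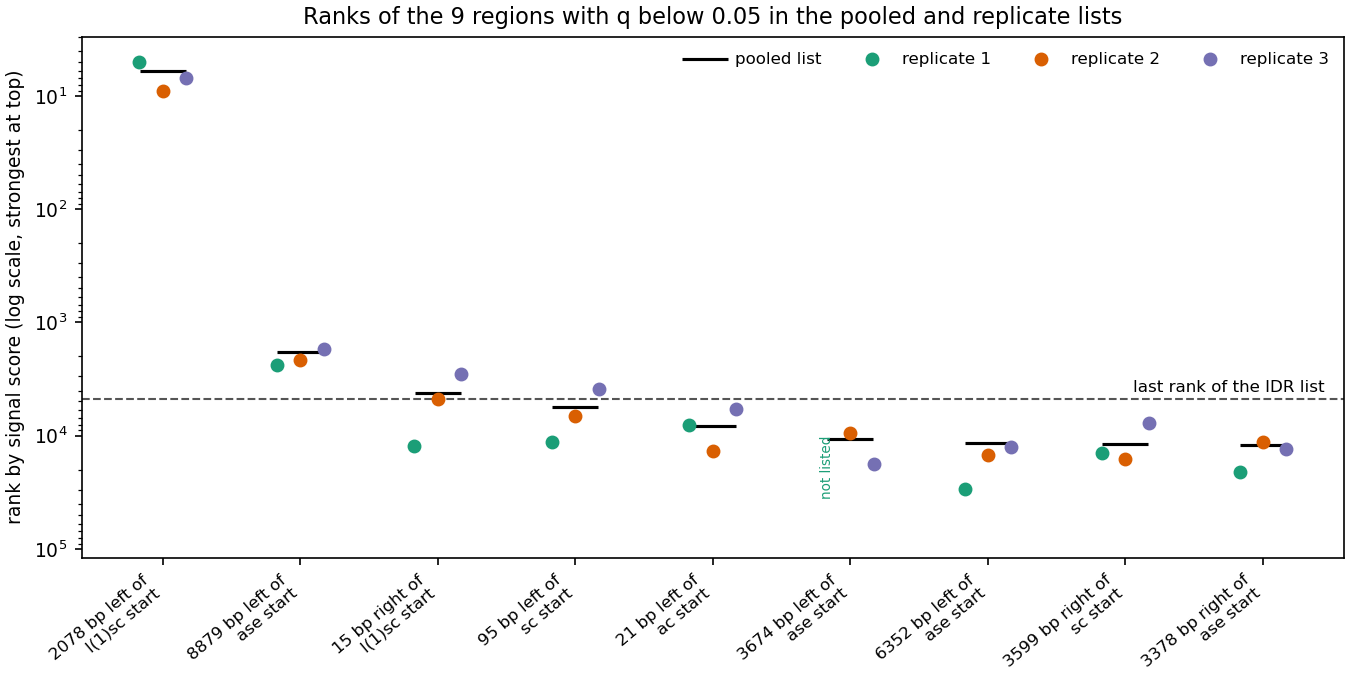
Rank by score (vertical axis, log scale, strongest at the top) of the 9 regions of the complex with a q-value below 0.05, in the pooled list (bars) and in replicates 1, 2 and 3 (points), with the last rank of the IDR list, 4753, as a dashed line. The peak 2078 bp left of the l(1)sc TSS sits between ranks 5 and 9, the peak left of ase between 1705 and 2374, and the points of the other regions spread more widely.

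The remaining regions with a q-value below 0.05 lay away from promoters. At X 399659, 3599 bp downstream of the sc TSS, a summit ranked 11969 in the pooled list and 14310, 16058 and 7723 in the replicates. The region of replicate 3 had its summit 266 bp away, at X 399925, and also covered a neighbouring weaker pooled summit at X 399926. Only in replicate 3 was the q-value below 0.05. To the left of ase, summits at X 454395 and X 457073 lay 6352 and 3674 bp upstream of its TSS and ranked 11516 and 10692. The first of these ranked 29444, 14752 and 12678 in the replicates, while the second was not listed in replicate 1 and ranked 9552 and 17729 in replicates 2 and 3. At the right end, 3378 bp downstream of the ase TSS, the summit at X 464125 ranked 12100, and 21169, 11356 and 13066 in the replicates. None of these 4 regions was among the 4753 strongest of any replicate.

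Of the 43 regions, 9 (20.9%) had a q-value below 0.05, against 41.7% of the whole pooled list, and 3 (6.98%) were in the IDR list, against 15.8%. Their median rank percentile was 39.3, below the middle of the list. Regions were nevertheless dense: the complex held 45.2 pooled regions per 100 kb, against 24.4 on the whole X chromosome and 22.4 over the genome. Overlapping regions were counted separately in all of these, and several neighbours in the complex overlap and share replicate regions, as at ac and sc. The 43 regions need therefore not be 43 separate sites. Weak regions made up this density, since regions with a q-value below 0.05 numbered 9.46 per 100 kb, against 9.35 over the genome, and IDR peaks 3.15 against 3.55. The replicates listed 30, 40 and 34 regions in the complex, or 36.4 ± 5.29 per 100 kb (SD, n = 3), against 22.4 over the genome in each. Among the 4753 strongest of each replicate, 2, 3 and 4 lay in the complex, 3.15 ± 1.05 per 100 kb (SD, n = 3), against 3.55 over the genome, a difference smaller than the spread between replicates.

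Many of the weak regions recurred in only some replicates. Of the 43 summits, 12 (27.9%) were covered by a listed region in all 3 replicates, against 48.7% of the whole pooled list. In 2 replicates there were 20 (46.5%), against 31.1%, and in 1 replicate 11 (25.6%), against 17.9%. No region of the complex was missing from every replicate, against 2.25% of the whole list. Replicates 1, 2 and 3 held 55.8%, 72.1% and 74.4% of the 43, against 70.2%, 79.2% and 76.9% of the whole list.

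Along the complex, most summits lay outside the exons of the 4 genes, which cover little of its length. All 43 lay within the span of CG32816. The 13.7 kb between the starts of sc and l(1)sc held 8 regions, 5.86 per 10 kb, of which 2 had a q-value below 0.05 and 1 was an IDR peak. Between the starts of l(1)sc and ase, 51.0 kb, there were 24 regions, 4.70 per 10 kb, with 4 and 2 of these kinds. Both of the latter counts include the l(1)sc promoter peak, whose summit lay 15 bp right of that start. The 26.0 kb between ac and sc held 8 regions, 3.07 per 10 kb, with 1 of q below 0.05, at the sc promoter, and no IDR peak. Of the 43 summits, 4 fell in exons of the 4 genes, 1 in each, and 6 lay within 500 bp of one of their starts. The same shares over all pooled regions are not given here, so these counts have no background.

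Stretches without any region were also present. The longest, 10.8 kb between summits at X 428056 and X 438890, held a copy of the retrotransposon 3S18, 6127 bp long (X 428474 to 434600), together with the pepsinogen-like gene Pgcl. Whether reads could be placed in that repeat was not tested. The next longest ran for 9.65 kb between X 382930 and X 392576 and for 8.35 kb between X 438890 and X 447235.

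The other genes inside the interval had no strong region at their starts. No pooled summit lay within 500 bp of the starts of Pgcl or of the noncoding RNA genes lncRNA:CR44751, lncRNA:CR44752 and lncRNA:CR44753. An internal start of CG32816 at X 428251 had a summit 195 bp away that ranked 24998. Outside, the noncoding gene lncRNA:yar on the left had a summit 228 bp upstream of its start at rank 27527, and Cyp4g1, a cytochrome P450 gene on the right, one at rank 25278. The nearest IDR peaks beyond the limits were 30.6 kb to the left, at X 338393 (rank 4340), and 12.8 kb to the right, at X 476955 (rank 1358). At the limits themselves, the outermost regions inside were those at X 370010 and X 464125, and the first outside were at X 366406 (rank 20490) and X 464343 (rank 19826).

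Other gene complexes, each taken with the same 1000 bp on each side, gave other densities. The achaete-scute complex had 3.15 IDR peaks per 100 kb, against 50.7 in the E(spl) complex of Notch-responsive repressors, 7.87 in the bithorax complex and 5.89 in the Antennapedia complex. Its strongest peak ranked higher, at 6, against 85, 21 and 16. Among the 4753 strongest regions of each replicate, the achaete-scute complex held 3.15 ± 1.05 per 100 kb, against 44.1 ± 11.0 in the E(spl) complex, 8.19 ± 0.315 in the bithorax complex and 5.10 ± 0.613 in the Antennapedia complex (SD, n = 3 each). In this measure its highest replicate, with 4 regions in 95.1 kb, stayed below the lowest replicate of each of the others, at 33.0, 7.87 and 4.41 per 100 kb. No test was made of these differences. With all listed regions counted it held 36.4 ± 5.29 per 100 kb, between the bithorax complex at 51.8 ± 8.43 and the Antennapedia complex at 29.0 ± 1.23, with the E(spl) complex at 112 ± 2.54 (SD, n = 3 each).

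**Figure D3:**
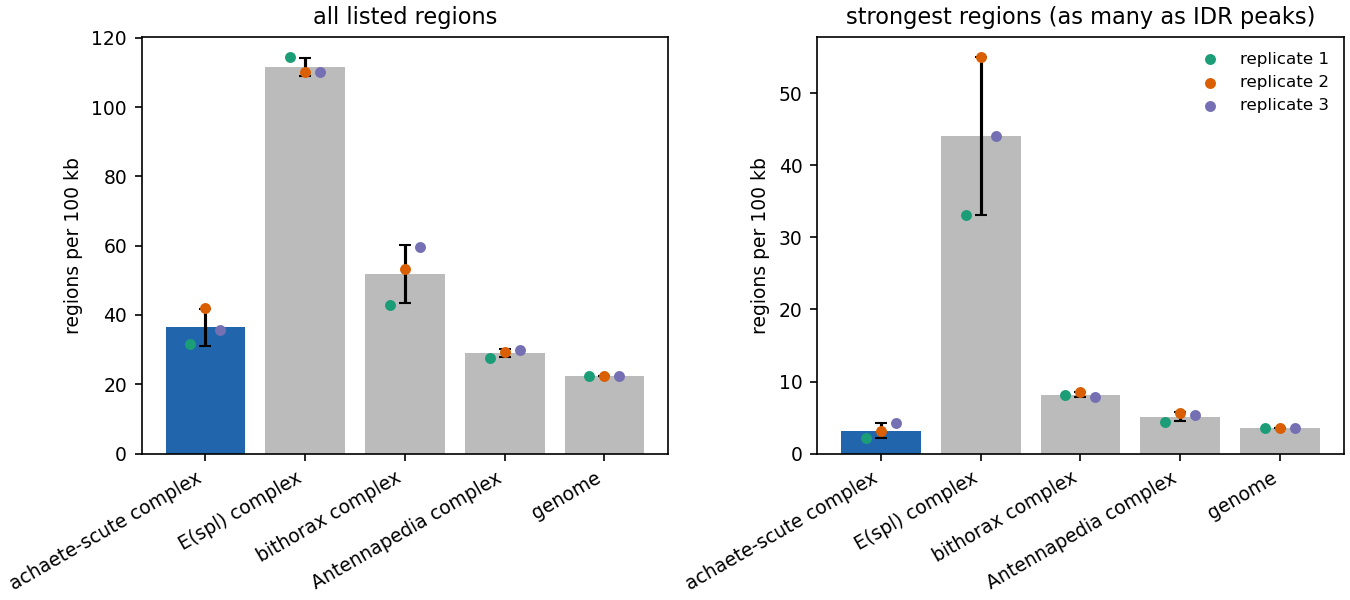
Regions per 100 kb (vertical axes) in the achaete-scute complex, 3 other gene complexes and the genome, for all listed regions (left) and for the 4753 highest-scored regions of each replicate (right). Bars are means, points the 3 replicates and error bars the SD; the achaete-scute complex lies at 36.4 on the left and at 3.15 on the right, where the genome lies at 3.55.

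Of the searched sequences, those linked to BEN-domain proteins occurred in the strongest peak and in neither of the other IDR peaks. Motifs were read on both strands. In the strongest peak, the Elba sequence CCAATAAG lay on the minus strand 4 to 11 bp right of the summit (X 407647 to 407654). Elba sequences lay within 50 bp of 1.83% of all IDR summits and 0.613% of all pooled summits. CCAATCAG lay on the minus strand 55 to 62 bp right of the summit. In the 250 bp window that holds it, this sequence was at 5.60% of IDR summits and 2.46% of pooled summits over the genome. The degenerate Insv site was matched on both strands at once, 41 to 52 bp left of the summit, by the same TCTAATTAGAA shifted by 1 bp, so the pair is a single palindromic stretch. A degenerate site lay within 250 bp of 1 of the 43 summits (2.33%), against 9.17% of all IDR summits and 2.47% of all pooled summits. It reached past the 50 bp window, in which none of the 43 summits had one, against 4.50% and 1.01%. The core CCAATTGG was not in this peak.

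Across the complex the Insv core occurred at 2 places, X 389916 and X 392105, and neither lay in a listed region, against 20.3% of all core matches in the genome that lay in a pooled region. The degenerate site had 3 matches, of which the overlapping pair of the strongest peak lay in a region and the match at X 445506 did not, against 43.9% in a pooled region over the genome. Elba sequences numbered 6, with 4 in pooled regions and 1 in an IDR peak, against 13.3% and 5.15% over the genome. Besides the one in the strongest peak, those in regions were at X 403321, X 447402 and X 451193, in regions of rank 13645, 29904 and 19302. The second CCAATCAG of the complex lay 51 bp right of the summit at X 461062, which is 315 bp downstream of the ase TSS. The region there had a −log10 q of 0.413.

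E-boxes, the sites of the proneural proteins themselves, were about as frequent as elsewhere. The form CAGNTG lay within 50 bp of 10 of the 43 summits (23.3%), against 20.0% of all IDR summits and 19.5% of all pooled summits. CAGCTG, 1 of the forms of CAGNTG, lay at 3 (6.98%), against 6.42% and 5.64%. The l(1)sc promoter peak had an E-box 18 bp right of its summit, and the peak left of ase had one 7 bp left and one 70 bp right of its summit. In the strongest peak, E-boxes lay 514 bp left, 97 bp right and 516 bp right of the summit, each outside the 50 bp window.

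The Zelda sequence CAGGTAG recurred in regions and promoters of the complex. It lay within 250 bp of 8 of 43 summits (18.6%), against 3.89% of all IDR summits and 4.02% of all pooled summits, and within 50 bp of 2 (4.65%), against 0.757% and 0.837%. Neighbouring summits can share a match in the wider window. In the 300 bases from 250 before to 50 after the TSS, ac, sc and l(1)sc had it and ase did not, against 1.64% of 13945 promoters. At sc it occurred 3 times, 62, 33 and 24 bp left of the summit. At l(1)sc it lay to the left of the IDR peak, not inside it. No test was made of these shares, and a match says only that the letters are present.

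Sequences of other factors were read in the 250 bp windows, with the shares of all IDR summits and of all pooled summits beside them. The Su(H) forms CGTGGGAA, TGTGGGAA, CGTGAGAA and TGTGAGAA were at none of the 43 summits, against 5.83% and 5.52%. TATCGATA (DREF) was at none either, against 9.57% and 4.49%, nor was GGTCACAC (M1BP), against 9.36% and 4.13%. Of the 43 regions, 40 were not IDR peaks, so the pooled shares are the nearer background. GAGAGAG lay at 2 summits (4.65%), against 16.3% and 11.2%, and both belonged to the sc promoter. GCCAT, the core of the Pho site, lay at 24 (55.8%), against 57.1% and 62.8%. CACGCG, a site of Hairy and E(spl) repressors, lay at 5 (11.6%), against 13.4% and 12.0%, and CACGTG at 4 (9.30%), against 7.20% and 6.65%. Among the 4 promoters, E-boxes CAGNTG were in ac, l(1)sc and ase, against 47.5% of all promoters, GAGAGAG in sc, against 5.87%, and CACGCG in ase, against 6.12%.

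**Figure D4:**
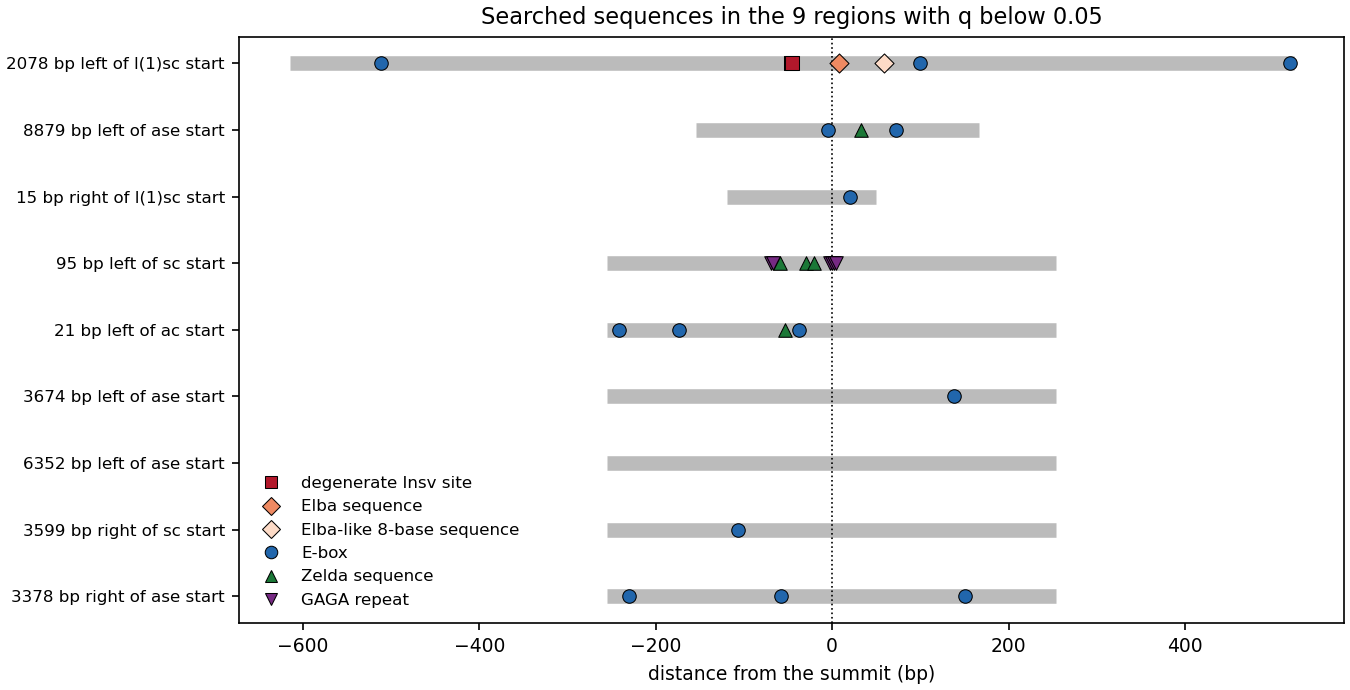
Positions of the searched sequences (symbols) in the 9 regions of the complex with a q-value below 0.05 (grey bars, drawn to the length of each region), by distance from the summit in bp (horizontal axis), strongest region at the top. BEN-domain protein sequences appear in the top region alone, and Zelda sequences in the peak left of ase and at the sc and ac promoters.

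Genes that act with the complex were also read. Of 26 genes of the proneural network, which are regulators, partners, antagonists and targets of the members, 12 (46.2%) had an IDR summit within 500 bp of a TSS and 25 had a pooled summit with a q-value below 0.05. These shares stand beside 1 of 4 and 3 of 4 for the members and 24.8% and 43.8% over all genes. The list was chosen with earlier results of these data known, and some of its genes are neighbours, such as gro and E(spl)m8-HLH. No test was made, and an excess over all genes cannot be read from these shares. Among activators of ac and sc, the Iroquois gene caup ranked 122 (149, 114 and 126 in the replicates) and the GATA factor gene pnr 291 (294, 325 and 276). The zinc finger gene chn ranked 1196, with ranks of 957 and 984 in replicates 1 and 2 and no listed region in replicate 3. The gene ush, listed as that of a cofactor of the pnr product and not as an activator, had 4 IDR summits and ranked 179 (184, 151 and 158). These peaks all ranked below the one upstream of l(1)sc.

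On the inhibitory side, the corepressor gene gro ranked 1306 (1069, 2825 and 1002) and the receptor gene N 1554 (2312, 1659 and 1436). The repressor gene E(spl)m8-HLH ranked 2043 (4463, 1854 and 1672). The target gene phyl, which encodes an adaptor for protein degradation in sensory precursors, ranked 2233 (3413, 2155 and 2352). Lower in rank, the other network genes with an IDR summit within 500 bp were D (2988), E(spl)m7-HLH (3229), emc (3514) and ara (3573). No IDR summit lay within 500 bp of a TSS of the partner gene da, of the proneural genes ato, amos and cato, of the neuroblast and column genes SoxN, vnd, ind and Dr, of sens and mirr, or of Delta, Su(H), H and hry.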

How the data were processed

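The deposited narrowPeak lists on dm6 comprised 1 relaxed list for each of 3 replicates, 1 for the pooled replicates, and the IDR list. Per the file headers, the authors made each relaxed list from alignments and a shared control alignment, and the IDR list from the relaxed lists. Caller, aligner, IDR threshold and sequencing depth are not given in the sources used. The deposited signal score was used as a rank within a list, and the deposited −log10 q-values for a q-value threshold of 0.05. The matching dm3 lists were not used here.

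Regions were assigned by summit, positions counted from 1. A replicate held a region where one of its listed regions covered the pooled summit, and the strongest such region gave the rank. Genes came from Ensembl release 115 (BDGP 6.54), limited to the major arms, and sequences from the RefSeq genome of the same assembly. Python 3.11.15 with pandas 2.3.3 and numpy 2.4.6 was used, and the counting was tested on simulated data. The labels give 1 group, so no test between groups was possible. Named were the members, the other genes of the interval and its neighbours, up to 8 bound network genes in order of score and the unbound ones. The remaining bound network genes were named after the data were seen. The members and lists were chosen with earlier results of these data known. Alternatives were other windows, thresholds, overlap rules and ranks, and each replicate left out.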

Additional observations from a re-analysis of the deposited data

How the results depend on the processing

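Of 38 alternative settings over 7 results, 31 stayed within the limits set for a change and 7 did not. With a q-value below 0.01 the regions of the complex numbered 5, and with no q threshold 43, against 9. Counting pooled regions with a q-value below 0.05 in place of IDR peaks gave 3 members with a promoter region, against 1. Leaving out 1 replicate means that an IDR summit must lie in the 4753 strongest regions of both others: the count of member promoters was then 0 to 1, at 0 without replicate 2 and without replicate 3, since replicate 1 ranked the l(1)sc promoter below that limit. The IDR peaks of the complex numbered 2 to 3 under this rule. The strongest peak ranked 1 by q-value, tied with all 5773 regions at the highest value, and 9 in replicate 2, against 6. The network count ranged from 11 to 15. CCAATCAG was added to the sequences after the data were seen and left the count of IDR peaks with an Insv or Elba sequence at 1. No paired analysis was possible because there is a single group. Depth is unknown, sonicated fragments of 200 to 800 bp limit how closely a summit places a site, and ranks from different lists show order only.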
